A study of Mus musculus with 32 samples.

Results

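The distal nephron adjusts the salt, potassium, calcium, magnesium and water that leave in the urine, and 10 genes that carry out this work were followed in kidney cortex: Umod, Slc12a1, Slc12a3, Kcnj1, Aqp2, Scnn1a, Scnn1b, Scnn1g, Calb1 and Trpm6. They were chosen by name, with earlier results of these data known, as 10 of the 32544 genes in a table of RNA-Seq counts. All 10 passed the low-count filter in every comparison made. The question was how these genes stood in Alport mice, a model of hereditary chronic kidney disease, and in mice given nicotinamide riboside (NR), from which cells make NAD+. The 32 mice were 25 weeks old and fell into 8 groups of 4, by sex, genotype and treatment, with each library made from the cortex of 1 mouse. All carried the Col4a3tm1Dec mutation on the C57BL/6J background. Alport mice were Col4a3-/- and lacked, in all cells, a chain of the type IV collagen of the glomerular basement membrane, whereas controls were Col4a3+/-, so no group was free of the mutation. Within each sex and genotype, mice received vehicle or NR. A level below is in CPM, a gene's counts scaled to a common library size, after TMM scaling, which corrects for differences in library composition, and a fold change is on a log2 scale with its standard error (SE). A gene was called changed when edgeR's quasi-likelihood test gave an adjusted p below 0.05 over all genes tested. Each p value sets a difference against the spread between mice of the same group, which is estimated partly from other genes.

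Filtrate meets these genes in order. In the thick ascending limb, Slc12a1 encodes the furosemide-sensitive sodium, potassium and chloride cotransporter (NKCC2), Kcnj1 encodes the potassium channel that returns potassium to the lumen (ROMK), and Umod encodes uromodulin, the most abundant protein of normal urine. In the distal convoluted tubule, Slc12a3 encodes the thiazide-sensitive sodium chloride cotransporter (NCC), Trpm6 an apical magnesium channel, and Calb1 calbindin, a calcium-binding protein of the cytosol. In the connecting tubule and collecting duct, Scnn1a, Scnn1b and Scnn1g encode the α, β and γ subunits of the epithelial sodium channel (ENaC), which aldosterone regulates and amiloride blocks, and Aqp2 encodes the water channel that vasopressin moves to the apical membrane. Kcnj1 is also used in the later segments.

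Libraries held between 16621944 and 27778797 counts, with a median of 22071395. Col4a3 itself was lower in vehicle-treated Alport mice of both sexes (log2 fold change −1.40, adjusted p = 7.25e-06 in males and −1.19, adjusted p = 3.57e-05 in females). In 2 libraries the targeted gene lay at the level of the other genotype. Those labelled male NR control 1 and 3 held 59.0 and 74.9 CPM of Col4a3, within the 54.6 to 83.7 CPM of the male Alport vehicle mice, whereas the male vehicle controls held 150.5 to 200.1 CPM. Their leukocyte marker sums, 68.2 and 64.9 CPM, and fibroblast marker sums, 203 and 192 CPM, were far below the 407 to 560 and 909 to 1455 CPM of the male Alport vehicle mice. Their proximal tubule marker sums, 12985 and 14283 CPM, lay within the 8891 to 15865 CPM of the male Alport vehicle mice. Their tubule injury marker sums, 2255 and 1950 CPM, lay between the 796 to 932 CPM of male vehicle controls and the 6709 to 8250 CPM of male Alport vehicle mice. Col4a3 was also below the vehicle range in male NR control 2 (93.7 CPM) and in all 4 female NR controls (105 to 123 CPM, against 140 to 163 CPM under vehicle). Tests of the 10 genes that use the libraries labelled male NR control 1 and 3 are given with and without them. Alport cortex also differed in cell markers. The summed level of 8 leukocyte markers was 42.1 to 52.6 CPM in male vehicle controls and 407 to 560 CPM in male vehicle Alport mice, and in females 45.6 to 108 against 306 to 602 CPM. The sum of 10 proximal tubule markers was 28786 to 29384 against 8891 to 15865 CPM in males and 14186 to 18325 against 6248 to 10370 CPM in females. None of the markers in either list was at 0 in any group. Each sum adds the CPM of its genes, so it follows the most abundant of them. The sum of 6 inner medullary markers overlapped between genotypes, at 194 to 293 against 203 to 307 CPM in males and 215 to 277 against 190 to 346 CPM in females. In whole cortex, fewer cells of a type and less RNA per cell cannot be told apart, and the part of these other cell types in the results on the 10 genes was not tested.

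The promoters of 4 of the genes are shown because they stand for both outcomes in Alport mice below: Slc12a3 and Kcnj1 were called lower in both sexes, and Umod and Aqp2 in neither. Each is the 250 bases before the RefSeq transcription start in build GRCm38.p6, read 5′ to 3′ in the direction of the gene, with motif matches in capitals. For Kcnj1 the start used lay inside the gene as annotated by GENCODE (chr9:32372493-32399197). The stretch before the first base of that annotation was not searched.
Umod (chr7:119479263-119479512, - strand): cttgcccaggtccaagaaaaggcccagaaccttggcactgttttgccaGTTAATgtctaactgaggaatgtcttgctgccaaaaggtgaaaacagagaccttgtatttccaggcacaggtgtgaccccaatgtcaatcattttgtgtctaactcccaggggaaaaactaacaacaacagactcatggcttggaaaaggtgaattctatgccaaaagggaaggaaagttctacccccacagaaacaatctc
Slc12a3 (chr8:94328958-94329207, + strand): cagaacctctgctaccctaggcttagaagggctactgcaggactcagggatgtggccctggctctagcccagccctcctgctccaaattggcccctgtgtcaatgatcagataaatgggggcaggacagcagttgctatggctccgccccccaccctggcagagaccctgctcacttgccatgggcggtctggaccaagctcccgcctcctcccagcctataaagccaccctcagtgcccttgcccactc
Kcnj1 (chr9:32393735-32393984, + strand): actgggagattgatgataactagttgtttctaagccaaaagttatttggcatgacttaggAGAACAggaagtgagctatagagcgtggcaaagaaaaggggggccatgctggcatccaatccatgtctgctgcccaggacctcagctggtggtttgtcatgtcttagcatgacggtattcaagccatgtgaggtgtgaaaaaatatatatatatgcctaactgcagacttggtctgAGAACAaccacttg
Aqp2 (chr15:99578806-99579055, + strand): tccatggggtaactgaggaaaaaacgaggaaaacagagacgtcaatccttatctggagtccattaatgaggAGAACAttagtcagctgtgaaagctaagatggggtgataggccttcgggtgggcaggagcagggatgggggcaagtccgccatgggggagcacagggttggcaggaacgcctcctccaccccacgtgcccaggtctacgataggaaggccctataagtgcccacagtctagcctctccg
A promoter entry was matched for 8 of the 10 genes, not for Scnn1a or Calb1. On both strands, 4 motifs were sought in the stretch from 250 bases before to 50 bases after the start: GTTAAT, part of the site of HNF1 factors, TGTTCT, part of the site of steroid hormone receptors, AAGGTCA, a site of estrogen-related receptors, and AACCGGTT, a site of grainyhead-like factors. Umod held GTTAAT at position −202, counted from the transcription start, and 7.1% of 32851 mouse promoters held this motif. Kcnj1 held TGTTCT on the opposite strand, printed as AGAACA, at −190 and −14, and Aqp2 held it at −179, against 19% of promoters. AAGGTCA, found in 4.72% of promoters, and AACCGGTT, found in 0.146%, had no match, and Slc12a1, Slc12a3, Scnn1b, Scnn1g and Trpm6 had none of the 4 motifs. The motifs do not overlap one another in sequence, and a match is a run of letters, not a measured binding site.

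In the GENCODE annotation of GRCm38 the thick ascending limb genes were Umod at chr7:119462711-119479282 on the minus strand, Slc12a1 at chr2:125152505-125230002 and Kcnj1 at chr9:32372493-32399197. The distal convoluted tubule genes were Slc12a3 at chr8:94329201-94366214, Calb1 at chr4:15881264-15908064 and Trpm6 at chr19:18749983-18892511. Aqp2 lay at chr15:99579055-99584547, Scnn1a at chr6:125320659-125344943, and Scnn1g at chr7:121734479-121768475 beside Scnn1b at chr7:121865038-121918514. All but Umod were on the plus strand. Umod and Slc12a1 overlapped antisense genes (Gm44588 and Gm14002), Scnn1b overlapped Cog7 and Trpm6 overlapped Gm24190, all on the opposite strand. Whether strand was used in counting was not given in the sources used here, so reads shared with those neighbours could not be separated.

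The 10 genes spanned a wide range of abundance. Per kilobase of exon, Umod was the most abundant of them, at 1100 ± 159 (SD) CPM per kb in male and 1277 ± 139 in female vehicle controls (n = 4 each). Aqp2, Slc12a1 and Slc12a3 followed at 148, 117 and 113 CPM per kb in males. The order of these 3 depended on the length used, since Slc12a3 stood at 381 CPM per kb of its principal transcript and then ranked second. Kcnj1 and Calb1 lay at 79.9 and 74.0 CPM per kb of exon. The ENaC subunits were lower, at 33.4 for Scnn1a, 26.4 for Scnn1b and 16.9 CPM per kb for Scnn1g, and Trpm6 was the lowest at 3.07 CPM per kb. Trpm6 also rested on the fewest reads, 259 to 1277 per library. Both length measures, in both sexes, put Umod first and Scnn1a, Scnn1b, Scnn1g and Trpm6 in the last 4 places.

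Across the 8 groups, the mean level of Umod varied least and that of Slc12a3 most: the highest group mean was 1.49 times the lowest for Umod and 3.41 times for Slc12a3. The other ratios were 1.66 for Aqp2, 1.76 for Scnn1b, 1.80 for Scnn1g, 2.16 for Kcnj1, 2.22 for Slc12a1, 2.23 for Trpm6, 2.54 for Scnn1a and 2.95 for Calb1. Without the libraries labelled male NR control 1 and 3 the Aqp2 ratio was 1.504 and the other 9 ratios were unchanged. When the 8 groups were ordered by mean, each gene had 7 pairs of neighbours, and the mice of most neighbouring groups overlapped. No neighbours were separated for Umod, Slc12a1, Aqp2, Scnn1b, Scnn1g, Calb1 and Trpm6. Slc12a3 and Scnn1a had 5 overlapping pairs of 7, and both stood highest in female vehicle controls, which were separated from the next group, female NR controls. Kcnj1 had 6 overlapping pairs, with female NR controls separated from male vehicle controls. The lowest mean was in male vehicle Alport mice for Umod, Slc12a1, Scnn1a, Scnn1b, Scnn1g, Calb1 and Trpm6, in male NR Alport mice for Slc12a3 and Kcnj1, and in male vehicle controls for Aqp2.

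**Figure D1:**
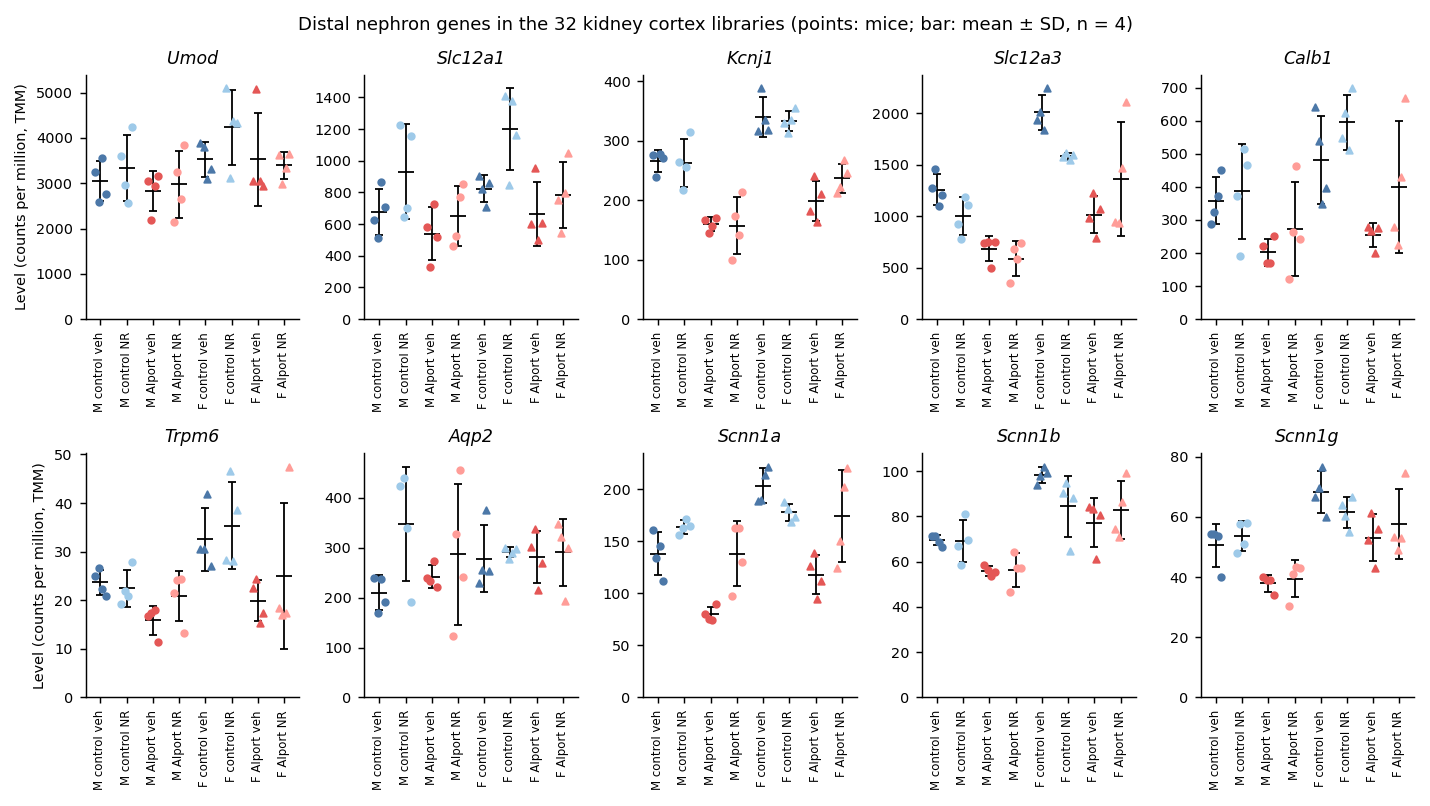
Level in CPM (linear axis from 0) of each of the 10 genes in each of the 32 mice, by sex (M, F), genotype and treatment (veh, vehicle), with the group mean and SD (n = 4). For Slc12a3, Kcnj1 and Scnn1a the vehicle Alport mice lie below all vehicle controls of their sex, whereas the groups overlap for Umod and Slc12a1.

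Alport mice were first compared with controls under vehicle. Of the 10 genes, 7 were called lower in male Alport mice and the same 7 in females: Kcnj1, Slc12a3, Calb1, Trpm6, Scnn1a, Scnn1b and Scnn1g. Umod, Slc12a1 and Aqp2 were called in neither sex, and no gene was called higher. The background was high, since 24.2% of all 15286 genes tested in males and 21.8% of 15709 in females were called lower. Because the 10 genes were chosen with earlier results known, a count above that share is a description and not a test. All 7 genes had every male Alport mouse below every male control, against 27.9% of all genes, and 6 of the 7 did so in females, against 23.6%, the exception being Scnn1g. The median log2 fold change of the 10 genes was −0.42 in males and −0.50 in females, beside −0.0013 and −0.00083 over all genes. These directions depend in part on scaling: with libraries scaled by total count alone, the median of all genes shifted by 0.34 in males and 0.27 in females, the called genes of the whole table went from 52.5% to 86.3% higher in males and from 52.3% to 84.1% in females, and of the 10 genes 4 were then called lower and 1 higher (Aqp2) in males and 4 lower in females. Slc12a3, Kcnj1, Scnn1a and Calb1 were lower and called in both sexes under either scaling. DESeq2 called the same 7 genes in each sex.

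Slc12a3, the thiazide target, fell most among the 10 in both sexes. Male vehicle controls held 1095, 1202, 1275 and 1461 CPM and male vehicle Alport mice 499, 743, 745 and 747 CPM. Female vehicle controls held 1839.7, 1935, 2014 and 2241 CPM and female vehicle Alport mice 786, 984, 1071 and 1224 CPM. The groups did not overlap in either sex. Slc12a3 fell by 42.6% in males, with a log2 fold change of −0.80 ± 0.14 (SE, adjusted p = 0.000666), and by 48.0% in females, −0.94 ± 0.14 (SE, adjusted p = 0.000391).

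Calb1 and Trpm6, which handle calcium and magnesium in the same segment, were also called lower. Calb1 was 289, 323, 373 and 450.1 CPM in male controls and 169, 169, 220.2 and 250.4 CPM in male Alport mice. In females it was 348, 397, 539 and 641 and 201, 266, 276 and 278 CPM. The controls of both sexes were spread widely, yet every Alport mouse was below them. The log2 fold change of Calb1 was −0.75 ± 0.16 (SE, adjusted p = 0.00201) in males and −0.87 ± 0.18 (SE, adjusted p = 0.00272) in females. Trpm6 stood at 20.8, 22.3, 25.0 and 26.7 CPM in male controls and at 11.3, 16.8, 17.4 and 17.9 CPM in male Alport mice. The corresponding female values were 26.96, 30.6, 30.6 and 41.9 and 15.4, 17.4, 22.6 and 24.4 CPM. The Trpm6 groups did not overlap, but the gap between the nearest mice was small in both sexes. Its log2 fold change was −0.50 ± 0.14 (SE, adjusted p = 0.0113) in males and −0.67 ± 0.17 (SE, adjusted p = 0.00838) in females, and the male call was lost when all 32 mice shared 1 fit (adjusted p = 0.0673) and under total count scaling (−0.15, adjusted p = 0.457). The female call was lost under total count scaling as well (−0.41, adjusted p = 0.0574).

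Of the thick ascending limb genes, Kcnj1 was the one called. Male controls held 239, 271, 277 and 278 CPM and male Alport mice 145, 156, 167 and 170.4 CPM. In females the values were 317, 319, 335 and 388 CPM in controls and 163, 182, 210.2 and 241 CPM in Alport mice. The male mice of each genotype lay close together, apart from 1 control at 239 CPM. Kcnj1 fell by 36.6% in males, −0.66 ± 0.08 (SE, adjusted p = 5.34e-05), and by 39.8% in females, −0.73 ± 0.12 (SE, adjusted p = 0.000849). Slc12a1, the furosemide target in the same cells, overlapped between genotypes. It was 514, 626, 706 and 863 CPM in male controls against 327, 522, 584 and 727 CPM in male Alport mice, and 706, 823, 857 and 904 against 497, 599, 604 and 955 CPM in females. The log2 fold changes of Slc12a1 were −0.24 ± 0.22 (SE, adjusted p = 0.378) and −0.27 ± 0.18 (SE, adjusted p = 0.251). In females 1 Alport mouse, replicate 2, held the highest Slc12a1 of its group, and without it the log2 fold change was −0.51 with an adjusted p of 0.00264. Umod was 2593, 2760.2, 3256 and 3546 CPM in male controls and 2182, 2936, 3041 and 3158 CPM in male Alport mice, a log2 fold change of −0.02 ± 0.15 (SE, adjusted p = 0.917). In females it was 3092, 3321, 3802 and 3894 and 2931, 3038, 3052 and 5074 CPM, 0.04 ± 0.18 (SE, adjusted p = 0.882). The same female Alport replicate 2 lay far above the other 3, and without it the value was −0.21. The male and female Umod differences were small beside their errors, and their sign changed with the mice, fit or scaling used.

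All 3 ENaC subunits were called lower in both sexes, with Scnn1a lowered most, but under total count scaling Scnn1b (0.10) and Scnn1g (0.01) were no longer lower in males and both female calls were lost, at −0.05 (adjusted p = 0.711) and −0.07 (adjusted p = 0.605). Scnn1a, the α subunit, was 112, 134, 145 and 161 CPM in male controls and 74.4, 75.8, 80.3 and 89.5 CPM in male Alport mice. In females it was 189, 189.5, 214 and 222 and 94.8, 112, 127 and 139 CPM. The groups were clearly apart in both sexes, and Scnn1a fell by 38.7% in males, −0.71 ± 0.11 (SE, adjusted p = 0.000197), and by 40.4% in females, −0.75 ± 0.12 (SE, adjusted p = 0.000565). Scnn1b, the β subunit, was 66.6, 68.8, 71.2 and 71.5 CPM in male controls and 53.5, 55.3, 56.4 and 58.6 CPM in male Alport mice, and 93.7, 97.7, 99.3 and 102 against 61.0, 80.4, 83.2 and 84.4 CPM in females. The male difference was small in size but the mice varied little, with a log2 fold change of −0.23 ± 0.07 (SE, adjusted p = 0.0107), and the female value was −0.31 ± 0.10 (SE, adjusted p = 0.0273). Scnn1g, the γ subunit, was 39.9, 53.6, 54.5 and 54.5 CPM in male controls and 33.9, 38.9, 39.0 and 39.9 CPM in male Alport mice. The lowest male control, at 39.91 CPM, was barely above the highest male Alport mouse, at 39.89 CPM. Female Scnn1g was 60.03, 66.6, 69.7 and 76.7 against 43.0, 52.2, 55.9 and 61.4 CPM, and there the groups overlapped. Its log2 fold changes were −0.33 ± 0.10 (SE, adjusted p = 0.0186) and −0.32 ± 0.11 (SE, adjusted p = 0.0373). The Scnn1b and Scnn1g calls depended on which mice were included: the female Scnn1b call was lost without control 2, 3 or 4 (adjusted p of 0.0512 to 0.0622), the male Scnn1g call without control 1 (0.0528) or Alport 4 (0.0501), and the female Scnn1g call in 6 of the 8 fits that left out 1 mouse (0.0521 to 0.097), the exceptions being those without control 4 or Alport 2.

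Aqp2, the water channel of the same collecting duct cells, was not called in either sex. Male controls held 170.0, 191, 238 and 240.2 CPM and male Alport mice 221, 234, 239.6 and 274 CPM. Female controls held 229, 253, 256 and 377 CPM and female Alport mice 215, 271, 302 and 339 CPM. The groups overlapped in both sexes, with log2 fold changes of 0.29 ± 0.12 (SE, adjusted p = 0.0624) in males and 0.05 ± 0.18 (SE, adjusted p = 0.835) in females. The male value stood near the threshold. It was called higher under total count scaling (0.63, adjusted p = 0.00148) and without control 1, control 3 or Alport 4 (adjusted p of 0.0406 to 0.0466).

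**Figure D2:**
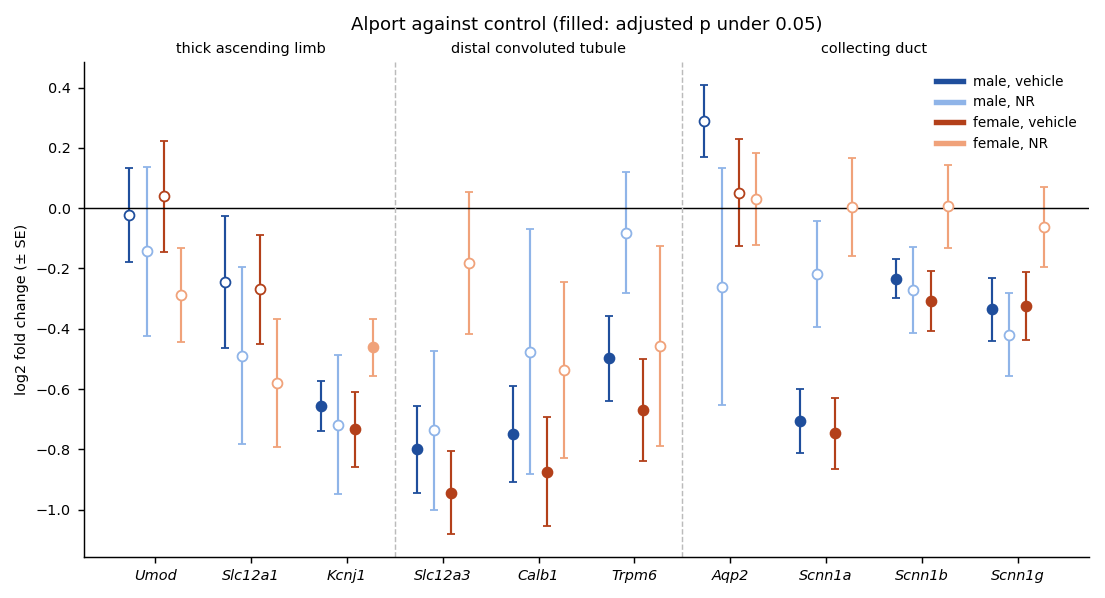
Log2 fold change (± SE) of Alport against control mice for each of the 10 genes, by sex and treatment, with 4 mice in each group and filled points for an adjusted p below 0.05 in edgeR. Filled vehicle points lie at −0.23 or lower for 7 genes in both sexes, Scnn1b and Scnn1g among them, whose male values were 0.10 and 0.01 and female values −0.05 and −0.07 under total count scaling, none of them called lower, and Kcnj1 in females is the only filled NR point.

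The other genes of each segment were drawn from lists of segment markers, which were also chosen with earlier results of these data known. Of 8 thick ascending limb genes other than the 3 above, 5 were called lower and 1 higher in each sex, and the median of the whole list of 11 was −0.44 in males and −0.46 in females. Of all genes, 24.2% in males and 21.8% in females were called lower and 26.8% and 24.0% higher. The list values were not taken under total count scaling, which shifted the median of all genes by 0.34 in males and 0.27 in females. Egf, which encodes the precursor of epidermal growth factor, fell from 1699 ± 121 CPM to 498 ± 104 CPM in males and from 2460.4 ± 289 to 799 ± 397 CPM in females (SD, n = 4), with log2 fold changes of −1.69 ± 0.15 (SE, adjusted p = 2.76e-06) and −1.58 ± 0.29 (SE, adjusted p = 0.00128). Cldn10, which encodes a claudin, was lower at −0.72 and −0.52, and Bsnd, which encodes barttin, at −0.61 and −0.56. The gene called higher was Cldn19, a claudin of the calcium and magnesium pathway between cells, at 0.81 ± 0.25 (SE, adjusted p = 0.0174) in males and 0.40 ± 0.12 (SE, adjusted p = 0.0166) in females. Of 11 other genes of the distal convoluted tubule, 6 were called lower and 2 higher in males, and 8 lower and 0 higher in females, with a list median over 14 genes of −0.55 and −0.64. Pvalb, the calcium-binding protein parvalbumin, fell by 72.9% in males (−1.88 ± 0.20 SE, adjusted p = 1.52e-05) and by 71.7% in females (−1.82 ± 0.26 SE, adjusted p = 0.000339). Kl, the klotho coreceptor for a phosphate-regulating hormone, stood at −1.22 and −1.13, S100g, a further calcium-binding protein, at −0.62 and −0.87, and Kcnj16, a basolateral potassium channel subunit, at −0.68 and −0.61.

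In collecting duct principal cells, of 7 genes other than Aqp2 and the ENaC subunits, 2 were called lower and 1 higher in males, and 2 lower and 0 higher in females, shares near those of all genes, of which 24.2% and 21.8% were called lower and 26.8% and 24.0% higher. The median of the list of 11 was −0.29 in each sex. Aqp4, a basolateral water channel, was lower in both sexes at −2.26 ± 0.73 (SE, adjusted p = 0.022) and −2.29 ± 0.47 (SE, adjusted p = 0.00248), but it varied widely among controls, from 4.71 to 105 CPM in males and from 24.5 to 82.8 CPM in females. The other calls, named after their values were seen, were Aqp3 (−0.33, lower) and Elf5 (1.04, higher, at most 82 counts in any mouse of the comparison) in males and Avpr2, the vasopressin receptor (−0.55, lower), in females. Among 15 genes that regulate salt transport, 10 were called lower in males and 9 in females and none higher by edgeR in either sex, with medians of −0.35 and −0.32. Klhl3, an adaptor of the ubiquitin ligase that removes WNK kinases, stood at −1.15 ± 0.11 (SE, adjusted p = 4.4e-06) and −1.14 ± 0.17 (SE, adjusted p = 0.000402). Wnk1, a WNK kinase upstream of both cotransporters, was lower at −0.78 ± 0.09 (SE, adjusted p = 3.07e-05) and −0.86 ± 0.11 (SE, adjusted p = 0.000181). Klk1, tissue kallikrein, fell as well (−1.02 and −0.82), and so did Prss8, the protease prostasin that activates ENaC (−0.67 and −0.62).

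Lowering was not particular to these segments. Of 11 intercalated cell genes, 9 were called lower in males and 10 in females, against 24.2% and 21.8% of all genes. Their medians were −0.75 and −0.78. Insrr, an alkali-sensing receptor, stood at −1.22 and −1.19, and Slc26a4, the bicarbonate exchanger pendrin, at −1.26 and −1.08. Of 10 proximal tubule genes, 10 and 9 were called lower, beside the same shares of all genes, with medians of −1.12 and −1.02. In the other direction, 8 and 7 of 8 leukocyte genes, 6 and 6 of 6 fibroblast genes, 6 and 6 of 6 tubule injury genes, 5 and 5 of 6 podocyte genes and 4 and 3 of 5 endothelial genes were called higher, against 26.8% of all genes in males and 24.0% in females. These are relative RNA levels and do not count cells. The study itself reported a lower podocyte density in Alport mice, and podocytes made up more of the nuclei of its controls. Of 6 inner medullary genes 4 were tested, with 1 called higher and 1 lower in males and 2 higher in females. The 10 genes thus moved beside a wide change in cell markers, and the part of those cells in their levels was not tested.

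**Figure D3:**
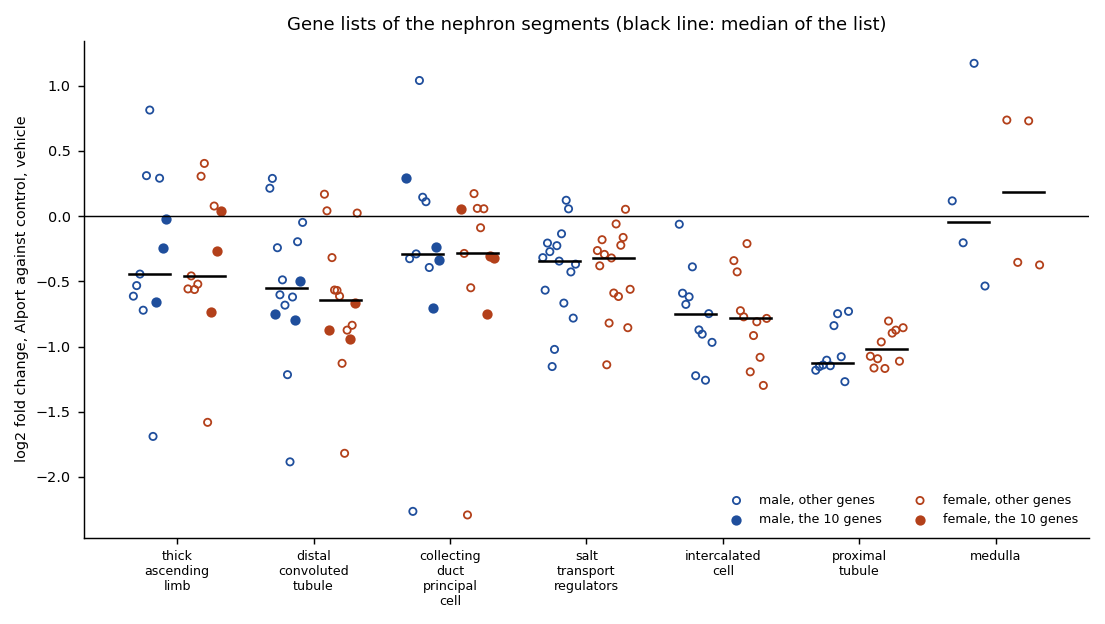
Log2 fold change of vehicle Alport against vehicle control mice for each gene of 7 lists, by sex (4 mice a group), with the 10 genes as filled points and the median of each list as a black line. The medians of the thick ascending limb, distal convoluted tubule, collecting duct and regulator lists lie between −0.29 and −0.64, those of the intercalated cell and proximal tubule lists at −0.75 or lower, and those of the 4 medullary genes near 0 (under total count scaling the median of all genes shifted by 0.34 in males and 0.27 in females).

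NR was then compared with vehicle within Alport mice, which shares its vehicle Alport mice with the comparison above. Of the 10 genes, edgeR called 0 in males and 0 in females, against 0% of 15500 and 0.477% of 15712 genes tested. At an unadjusted p below 0.05 there was 1 gene in males and 1 in females, Scnn1a in both, beside 5.06% and 16.7% of all genes. DESeq2 called Scnn1a in males, with 0.40% of all genes, and none of the 10 in females, with 4.63%. Scnn1a is the subunit that aldosterone raises. It was 74.4, 75.8, 80.3 and 89.5 CPM in male vehicle Alport mice and 97.3, 130.1, 163 and 163 CPM in male NR Alport mice. Every NR mouse was above every vehicle mouse, which held for 1.97% of all genes in this comparison. Its log2 fold change was 0.78 ± 0.17 (SE, unadjusted p = 0.00141, adjusted p = 0.558). DESeq2 gave an adjusted p of 0.0161, and the edgeR value without male NR Alport 1 was 0.92 with an adjusted p of 0.0261. Female Alport mice held 94.8, 112, 127 and 139 CPM under vehicle and 125, 150.1, 202 and 220.4 CPM under NR, where the groups overlapped, with a log2 fold change of 0.57 ± 0.19 (SE, unadjusted p = 0.0142, adjusted p = 0.201).

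The other 9 genes ranged from −0.22 (Slc12a3) to 0.43 (Calb1) in males and from −0.05 (Umod) to 0.66 (Calb1) in females, and none passed the test in edgeR. Calb1 in male NR Alport mice was 122, 242, 264 and 464 CPM and in females 223, 279.6, 429 and 669.6 CPM, so that the mice of 1 group differed more than the groups did. Slc12a3 was 349, 584, 680.3 and 743 CPM in male and 932, 941, 1464 and 2105 CPM in female NR Alport mice. The male mice stayed near the vehicle range and 1 female stood far above the rest. Kcnj1 was 99.5, 142, 173 and 213 CPM in males and 212, 223, 245 and 268 CPM in females, with log2 fold changes of −0.03 ± 0.21 (SE, adjusted p = 0.993) and 0.26 ± 0.14 (SE, adjusted p = 0.371). In none of the thick ascending limb, distal convoluted tubule, collecting duct, regulator or intercalated cell lists did edgeR call a gene in either sex. The leukocyte sum was 407 to 560 CPM under vehicle and 141 to 769 CPM under NR in male Alport mice, and 306 to 602 against 66.3 to 500.4 CPM in females.

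In 3 of the Alport groups, single mice were the lowest or highest for most of the 10 genes. Male NR Alport 1 was the lowest of its 4 in 9 of the 10 genes, and it held the highest sum of leukocyte markers, 769 CPM against 141 to 300 CPM in the other 3. Female NR Alport 4 was the highest of its 4 in 8 genes and held the lowest leukocyte sum, 66.3 CPM against 161 to 500 CPM. Among female vehicle Alport mice, replicate 3 was the lowest in 9 genes and replicate 2 the highest in 8. Their leukocyte sums were 483 and 306 CPM, against 554 and 602 CPM in the other 2, so the mouse with the lowest levels did not hold the highest sum. Replicate 2 held the highest inner medullary sum of this group, 346 CPM against 190 to 242 CPM. Replicate 3, at 206 CPM, did not hold the lowest. Female NR Alport 2 was the lowest of its 4 in 7 genes with a leukocyte sum of 362 CPM, below the 500.4 CPM of replicate 1. The part of the marked cells in these levels was not tested.

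Alport and control mice were also compared with both on NR, which involves none of the vehicle mice. In males edgeR called 0 of the 10 genes, against 0% of 14884 genes tested, although all 10 log2 fold changes were below 0, from −0.74 to −0.08. At an unadjusted p below 0.05 there were 3 genes, beside 21.6% of all genes, and DESeq2 called Slc12a3 and Kcnj1, with 9.28% of all genes. The 3 were Slc12a3 (−0.74 ± 0.26 SE, adjusted p = 0.164), Kcnj1 (−0.72 ± 0.23 SE, adjusted p = 0.131) and Scnn1g (−0.42 ± 0.14 SE, adjusted p = 0.139), in each of which every Alport mouse was below every control, against 6.98% of all genes. Slc12a3 was 778, 922, 1110.2 and 1186 CPM in male NR controls and 349, 584, 680.3 and 743 CPM in male NR Alport mice. Kcnj1 was 217, 256, 264 and 315 and 99.5, 142, 173 and 213 CPM in the same groups. For both genes the nearest mice of the groups were close, and the Alport mice were spread widely. Without the libraries labelled male NR control 1 and 3, edgeR again called 0 of the 10 genes, and the values were −0.64 for Slc12a3, −0.72 for Kcnj1 and −0.52 for Scnn1g. The Alport mice were then below the 2 remaining controls for these 3 genes, against 17.7% of all genes. In females edgeR called Kcnj1 as lower, against 13.1% of 15109 genes, and the other 9 genes were not called. Kcnj1 was 314, 330.3, 336 and 355 CPM in female NR controls and 212, 223, 245 and 268 CPM in female NR Alport mice, with no overlap and a log2 fold change of −0.46 ± 0.09 (SE, adjusted p = 0.00562). Slc12a1 lay near the threshold at −0.58 ± 0.21 (SE, adjusted p = 0.0671), and DESeq2 called it (adjusted p = 0.0187). The ENaC subunits stood at 0.0045 ± 0.16 (SE, adjusted p = 0.986) for Scnn1a, 0.01 ± 0.14 (SE, adjusted p = 0.98) for Scnn1b and −0.06 ± 0.13 (SE, adjusted p = 0.764) for Scnn1g. The count in females depended on 1 mouse in particular: without female NR Alport 4, edgeR called 5 of the 10 genes, and without female NR control 2 it called 3. The share of all genes called in these refits is not given here, so the counts are not a result about the 10 genes. The leukocyte sum was 53.8 to 123 CPM in male NR controls against 141 to 769 CPM in male NR Alport mice, and 53.9 to 72.3 against 66.3 to 500.4 CPM in females, and its part in these values was not tested.

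In NR controls against vehicle controls, edgeR called 0 of the 10 genes in males, against 4.53% of 14696 genes, and 2 in females. In males 3 genes had an unadjusted p below 0.05, beside 23.1% of all genes, and DESeq2 called 1 gene, Aqp2, with 11.3% of all genes. Aqp2 was 170.0, 191, 238 and 240.2 CPM in male vehicle controls and 191, 339.6, 424 and 440.3 CPM in male NR controls. The NR mice were widely spread, and 1 lay within the vehicle range. The log2 fold change of Aqp2 was 0.75 ± 0.24 (SE, adjusted p = 0.101), and without male NR control 4 it was 0.96 with an adjusted p of 0.00671. Slc12a3 (−0.32 ± 0.14 SE, adjusted p = 0.21) and Scnn1a (0.26 ± 0.11 SE, adjusted p = 0.194) were the other 2. With the libraries labelled male NR control 1 and 3 left out, edgeR called 0 of the 10, and the values were 0.59 for Aqp2, −0.42 for Slc12a3 and 0.24 for Scnn1a. The sum of 6 tubule injury markers was 796 to 932 CPM in male vehicle controls and 963 to 2255 CPM in male NR controls (963 and 1588 CPM without the libraries labelled 1 and 3). Other sums did not overlap either, with 28786 to 29384 against 12985 to 25009 CPM for proximal tubule, 225 to 245 against 309 to 374 CPM for endothelial and 108 to 125 against 133 to 203 CPM for fibroblast markers. Their part in these values was not tested.

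In female controls the 2 calls went in opposite directions. Slc12a1 was called higher, against 3.91% of 14951 genes called higher, and Slc12a3 lower, against 2.27% called lower. Slc12a1 was 706, 823, 857 and 904 CPM under vehicle and 847, 1159, 1377 and 1409 CPM under NR. The NR mice were higher except for 1 that lay within the vehicle range, and the log2 fold change was 0.54 ± 0.14 (SE, adjusted p = 0.0424). Slc12a3 was 1839.7, 1935, 2014 and 2241 CPM under vehicle and 1542, 1573, 1593 and 1617 CPM under NR. The 4 NR mice were close to one another and all below the vehicle mice, as held for 6.32% of genes, with a log2 fold change of −0.35 ± 0.08 (SE, adjusted p = 0.0235). Scnn1a did not overlap either, at 189, 189.5, 214 and 222 CPM under vehicle and 169, 174, 181 and 188 CPM under NR, but was not called (−0.20 ± 0.07 SE, adjusted p = 0.126). Neither call was firm: Slc12a1 lost it in 7 of the 8 fits that left out 1 mouse (adjusted p of 0.0511 to 0.119), the exception being the fit without NR control 2, Slc12a3 lost it in the 4 fits without vehicle control 2, vehicle control 4, NR control 1 or NR control 4 (0.0524 to 0.0692), total count scaling left Slc12a3 as the 1 gene called, and with all 32 mice in 1 fit edgeR called 0 of the 10. The tubule injury sum was 1877 to 2468 CPM under vehicle and 1697 to 2694 CPM under NR in these mice. The inner medullary sum was 215 to 277 CPM under vehicle and 236 to 363 CPM under NR. NR control 2, the lowest for Slc12a1, also held the lowest inner medullary sum, against 327 to 363 CPM in the rest of its group. The part of these markers in the 2 calls was not tested.

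**Figure D4:**
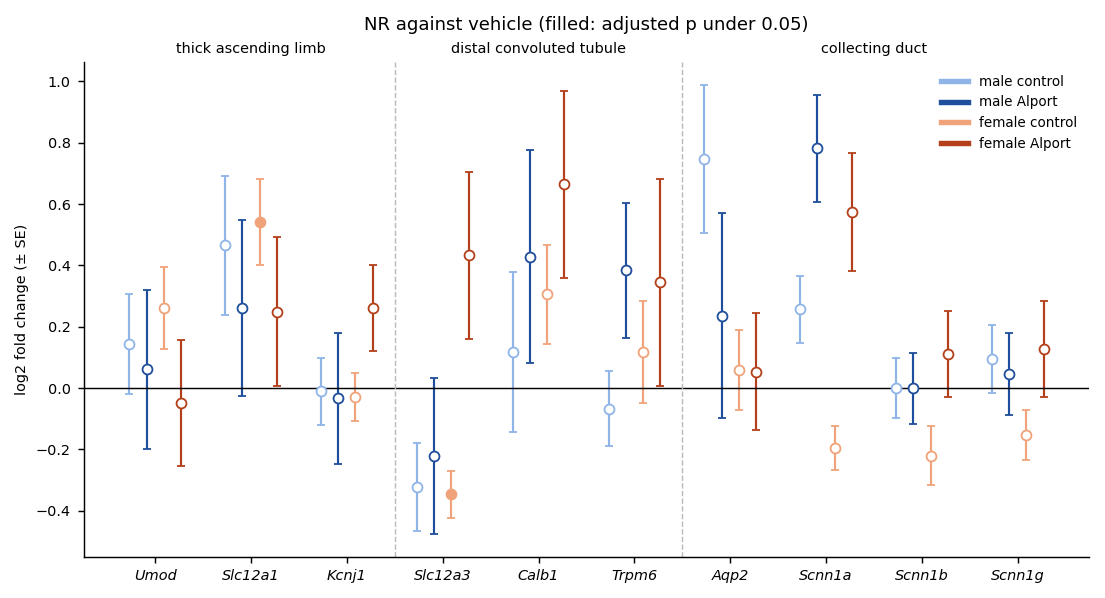
Log2 fold change (± SE) of NR against vehicle for each of the 10 genes, by sex and genotype, with 4 mice in each group and filled points for an adjusted p below 0.05 in edgeR. Slc12a1 and Slc12a3 in female controls are the only filled points, and Scnn1a in male Alport mice has the highest value at 0.78.

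Whether the NR difference depended on genotype was tested with an interaction term. Of the 10 genes edgeR called 0 in males (against 0% of 15800 genes) and 0 in females (against 0% of 16064), and DESeq2 called 0 in each. At an unadjusted p below 0.05 there was 1 gene in males, beside 8.85% of all genes. It was Scnn1a, with an interaction of 0.51 ± 0.21 (SE, adjusted p = 0.53), and without the libraries labelled male NR control 1 and 3 its value was 0.53. In females there were 2, beside 9.47% of all genes, Scnn1a at 0.75 ± 0.21 (SE, adjusted p = 0.376) and Slc12a3 at 0.76 ± 0.29 (SE, adjusted p = 0.461). For Scnn1a the NR log2 fold change behind it was −0.20 without and 0.57 with Alport disease, and for Slc12a3 it was −0.35 and 0.43.

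Among vehicle controls, which also serve in the comparisons above, female mice had the higher mean for all 10 genes, and 6 were called higher: Slc12a3, Kcnj1, Scnn1a, Scnn1b, Scnn1g and Trpm6. Of all 14990 genes, 15.9% were called higher in females. In all 6 every female was above every male, which held for 14.4% of genes. Slc12a3 differed most, with the values given above for each mouse and a log2 fold change of 0.70 ± 0.10 (SE, adjusted p = 0.000302). The ENaC subunits stood at 0.58 ± 0.11 (SE, adjusted p = 0.0016) for Scnn1a, 0.52 ± 0.06 (SE, adjusted p = 7.31e-05) for Scnn1b and 0.46 ± 0.11 (SE, adjusted p = 0.00755) for Scnn1g. Kcnj1 was higher by 0.38 ± 0.08 (SE, adjusted p = 0.005) and Trpm6 by 0.48 ± 0.13 (SE, adjusted p = 0.0162) on the log2 scale, and these 2 calls were lost when all 32 mice shared 1 fit (adjusted p of 0.109 and 0.236). Calb1 (0.45 ± 0.18 SE, adjusted p = 0.08), Aqp2 (0.43 ± 0.16 SE, adjusted p = 0.0561), Slc12a1 (0.30 ± 0.14 SE, adjusted p = 0.108) and Umod (0.24 ± 0.11 SE, adjusted p = 0.123) were not called. The median of the 10 genes was 0.45, and that of all genes 0.02. Total count scaling shifted the median of all genes by 0.17, moved the called genes from 50.2% to 80.1% higher in females, and called all 10 genes higher. Summed cell markers differed too: the sum of 6 tubule injury markers was 1877 to 2468 CPM in female and 796 to 932 CPM in male vehicle controls. That of 10 proximal tubule markers, Kap among them, was lower in females, as given above. Such a sum follows its most abundant genes, so it is a measure of neither cell number nor injury. The part of these markers in the values of the 10 genes was not tested. In the segment lists, 7 of 11 thick ascending limb genes, 8 of 14 distal convoluted tubule genes, 7 of 11 collecting duct genes and 8 of 15 regulators were called higher in females, and 1, 0, 0 and 3 lower. Of all genes, 15.8% were called lower. The higher counts include calls already given: Kcnj1 in the thick ascending limb list and Slc12a3 and Trpm6 in the distal convoluted tubule list. The collecting duct count likewise includes Scnn1a, Scnn1b and Scnn1g.

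The Alport difference itself was compared between the sexes with an interaction term, called at an adjusted p below 0.05 with at least a 2-fold difference. Of the 10 genes edgeR called 0, against 0.285% of 16152 genes, none had an unadjusted p below 0.05, beside 12.0% of all genes, and DESeq2 called 0. The interactions ranged from −0.27 to 0.03, with SEs that put Slc12a3 at −0.17 ± 0.21 (SE, adjusted p = 0.837) and Scnn1a at −0.07 ± 0.17 (SE, adjusted p = 0.939). A difference between the sexes in how far these genes fell was not detectable with 4 mice a group.

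Among the mice of a group, most pairs of the 10 genes varied in the same direction. For each of the 45 pairs, Pearson's r was taken over the 32 mice after the mean of each mouse's own group was removed from its log2 level, as a description, since all genes of a mouse share its library and its mix of cells. Of the 45 values 43 were above 0, with a median of 0.39 and a range from −0.09 to 0.79, and 15 were over 0.5. Without the libraries labelled male NR control 1 and 3, 43 were above 0, the median was 0.41, the range −0.11 to 0.80, and 18 were over 0.5. The highest was between Umod and Slc12a1, both of the thick ascending limb, and Umod with Kcnj1 stood at 0.71. A further set of high values linked Slc12a3 with Scnn1b (0.74), Scnn1a (0.72) and Calb1 (0.70), and Scnn1a with Scnn1b (0.68). Aqp2 had no value over 0.42 with any of the other 9 genes, and the lowest value was between Umod and Trpm6.

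**Figure D5:**
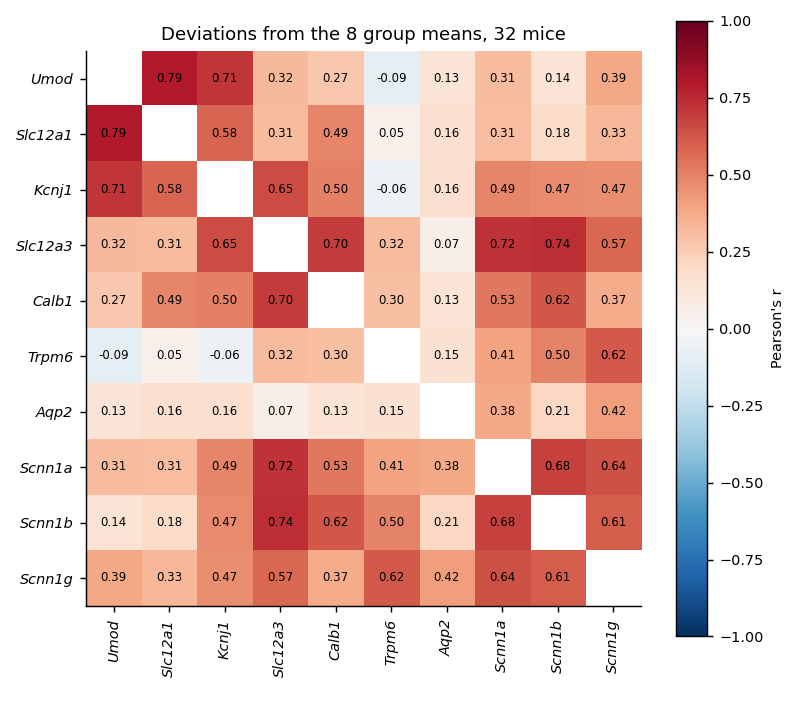
Pearson's r between each pair of the 10 genes, over the deviations of 32 mice from their 8 group means on the log2 scale, with the colour from −1 (blue) to 1 (red). Umod and Slc12a1 (0.79), and Slc12a3 with Scnn1b (0.74), are the highest, and the row of Aqp2 is the palest.

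The genes whose level over the 32 mice was most like that of each member were found among 15381 genes by Pearson's r, as a description. Slc12a3 was most like Malrd1 (0.95), Wnk4 (0.93) and Kcnj10 (0.93), and Kcnj1 was most like Fads6 (0.96), Pfkm (0.95) and Prps2 (0.95). Umod was nearest to Ptger3 (0.83) and Slc12a1 (0.82), and Slc12a1 to Fa2h (0.88). The nearest gene was Anxa11 for Scnn1a (0.91), Gata2 for Scnn1b (0.91), Wnk4 for Scnn1g (0.89), Cwh43 for Calb1 (0.92), Irs1 for Trpm6 (0.85) and Pold2 for Aqp2 (0.68). Aqp2 had the weakest likeness of the 10. Without the libraries labelled male NR control 1 and 3 the nearest gene was the same for 8 of the 10, Slc12a1 and Scnn1g being the exceptions. With the 8 group means removed, Slc12a3 was nearest to Dhtkd1 (0.93) and Calb1 to Fam63a (0.87), but the nearest gene was then the same with and without those libraries for only 3 of the 10.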

How the data were processed

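RNA was extracted from kidney cortex, poly(A) libraries were sequenced, and the authors deposited raw counts per gene for the 32 mice together with a log10 table; per the labels the build was mm10, and BioJupies is named in the study's methods. The aligner's version, the annotation and the strand setting were not given in the sources used here. The deposited log10 values equalled log10(CPM + 1) computed from the counts to within 4.44e-16, and were not otherwise used. Counts were tested with edgeR 4.0.16 (R 4.3.3): genes passing filterByExpr at a minimum count of 10, TMM factors, the 2 groups of a comparison (4 for an interaction) in each quasi-likelihood fit, and Benjamini-Hochberg adjustment over all genes tested, with calls at 0.05. The SE was the size of the log2 fold change over the square root of F. Levels used TMM factors over the 32 libraries (0.828 to 1.25), and log2 levels a prior count of 2. Library totals were 16621944 to 27778797, and 7938 of 32544 genes had no count. No 2 mice of a group agreed within sampling noise (chi-square per degree of freedom at least 7.96 in 48 pairs). The 10 genes and all lists were chosen with earlier results of these data known. Named list genes were at most 4 per list, those called in both sexes in the same direction with the largest mean log2 fold change. Lists covered the thick ascending limb, distal convoluted tubule, collecting duct principal cell, salt transport regulators, intercalated cell, proximal tubule, medulla, podocyte, leukocyte, fibroblast, endothelium and tubule injury. Alternatives were DESeq2 1.42.0, RLE factors, total counts, no filter, all mice in 1 fit, a replicate block and leaving out each mouse. The scripts were tested on simulated data.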

Additional observations from a re-analysis of the deposited data

Results flagged for a closer look

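In 10 of the 80 sets of 4 mice, formed by the 10 genes in the 8 groups, the highest or lowest mouse lay further from the others than Dixon's limit for 4 values allows. Chance marks about 5% of such sets, here 4, and genes of a mouse are not independent. Female vehicle Alport 2 held 5074 CPM of Umod against 2931 to 3052 CPM in the other 3. Male vehicle Alport 3 held 499 CPM of Slc12a3 against 743 to 747 CPM. Male vehicle control 2 held 239 CPM of Kcnj1 against 271 to 278 CPM. Female vehicle Alport 3 was low for Scnn1b, at 61.0 CPM against 80.4 to 84.4 CPM, and for Calb1, at 201 CPM against 266 to 278 CPM. Scnn1g was low in 3 males: vehicle control 4 held 39.9 CPM against 53.6 to 54.5 CPM, vehicle Alport 4 held 33.9 CPM against 38.9 to 39.9 CPM, and NR Alport 1 held 30.4 CPM against 40.9 to 43.5 CPM. Trpm6 was low in male vehicle Alport 4, at 11.3 CPM against 16.8 to 17.9 CPM, and high in female NR Alport 4, at 47.5 CPM against 17.0 to 18.3 CPM.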

How the results depend on the processing

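Of 805 alternative values, 700 kept direction and side of the threshold, 36 lost a call, 33 gained one, 12 changed sign and 24 were counts of called genes that moved by over 1.5 times. For genes given in the text only by a range, 999 further values included 97 changes of sign, of at most 0.21 in size, and 4 new calls. Under DESeq2 the number of the 10 genes called went to 1 for NR in male Alport mice, 1 for NR in male controls, 2 for Alport on NR in males and 2 in females. All 32 mice in 1 fit gave 1 for NR in male Alport mice, 0 for NR in female controls and 3 for Alport on NR in males. Total count scaling gave 4 for vehicle Alport females, 1 for NR in female controls and 10 for sex, and no low-count filter gave 2 for Alport on NR in females. With a replicate block, NR in female controls gave 0 and Alport on NR in females 2, and the Scnn1g call in vehicle Alport females was lost (adjusted p = 0.0536), while Aqp2 in vehicle Alport males was called (0.0243). The main tests did not treat replicate numbers as pairs. Of 36 same-number pairs, 12 had a correlation over 0.1 (range −0.247 to 0.414). Pairs of unlike number were not compared, so these values cannot decide whether the numbers pair the mice. Leaving out 1 mouse gave 7 to 8 genes called for vehicle Alport males, 5 to 8 for females, 0 to 1 for NR in male Alport mice (1 without NR Alport 1) and in male controls (1 without NR control 4), 0 to 2 for NR in female controls, 1 to 5 for Alport on NR in females, 6 to 8 for sex, and 0 in the others run. It was not run for the NR-genotype interactions. The shares of all genes called in the fits that left out 1 mouse are not given here, so these counts describe the fits and not the 10 genes. Leaving out the libraries labelled male NR control 1 and 3, an alternative chosen after seeing the data, changed no call among the 10 genes. In vehicle Alport males, total count scaling turned Umod to 0.31, Slc12a1 to 0.10, Scnn1b to 0.10 and Scnn1g to 0.0073, and leaving out 1 mouse moved Umod between −0.097 and 0.083. In vehicle Alport females, Umod turned to −0.0011 with all mice in 1 fit and lay between −0.21 and 0.12 without 1 mouse, and Aqp2 between −0.063 and 0.24. Over the whole table, counts called by edgeR and DESeq2 were 0 and 62 for NR in male Alport mice, 75 and 728 in females, 666 and 1654 for NR in male controls, 924 and 1493 in females, and 0 and 1381 for Alport on NR in males, where all mice in 1 fit gave 4565. NR in female controls gave 18 with all mice in 1 fit and 371 with the block, and NR in male controls 309 with the block and 96 without the 2 doubted libraries. Total count scaling moved the share of called genes that were higher from 81.3% to 55.6% for NR in female Alport mice, from 63.2% to 26.2% for NR in female controls and from 52.2% to 83.2% for Alport on NR in females. The causes of these differences were not tested. Trpm6 had the fewest counts, 259 to 1277 per library.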
